A study of Mus musculus with 18 samples.

Results

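Open chromatin of naive CD4 T cells from the spleen was compared with that of the same cell type from the mesenteric lymph nodes, in the cells sorted as high for an Nr4a1-dsGFP reporter. The comparison rests on 6 of the 18 ATAC-seq libraries of the study, 3 from spleen and 3 from mesenteric lymph nodes, and on their peaks on chromosomes 1 to 19 and X. All groups share the genotype label WT, the strain C57BL6/J and no treatment, the age of the mice is not given in the labels, and the cells were freshly prepared. The spleen and mesenteric low-reporter libraries, 3 each, were used only to see whether an organ difference was also found in them. In ATAC-seq, Tn5 transposase inserts adapters into accessible DNA, and here 500000 cells went into each library, with a lysis of 15 min and a tagmentation of 30 min at 37 °C. The labels call the replicates biological but do not tie them to animals, so each p-value speaks only to the spread among these libraries, and that spread may be technical. The labels give neither how the reporter was built nor where the sort gates lay.

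Naive CD4 T cells recirculate through spleen and lymph nodes and receive weak T cell receptor signals from self peptides there, called tonic signals. Nr4a1 is an immediate early gene of that receptor, so a short-lived fluorescent reporter of it ranks cells by recent signal strength. Mesenteric nodes drain the gut, where retinoic acid and TGF-beta shape T cell homing, while the spleen filters blood and is entered without high endothelial venules.

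The spleen libraries held fewer peaks than the mesenteric ones, and the missing peaks lay mostly away from gene starts. Regions found in all 3 spleen and no mesenteric library were few. They included regions 34271 bp from Cd69, 120742 bp from Cxcr4 and 56830 bp from Ptgs2. Those with the opposite pattern included regions inside Dtx1 and 36364 bp from Il6st. From gene lists they included regions 24743 bp from Kcna3, whose promoter had a peak in all 6 libraries, and inside Tgfbr2. Where both organs had a peak, reads were higher in spleen at the promoters of Eif4b and Plekho2 and inside Mef2c, and lower in spleen at regions inside Map3k13, Srpk1 and Arhgef10. These regions were chosen because they were called in the same direction under each scaling of reads, while the balance of all calls turned with it. After centring, fold called only the Map3k13 region. The 3 lower calls by reads were lost when a mesenteric library was left out. In reporter-low cells 31 of 54 spleen-only regions (57.4%) had a peak in more spleen than mesenteric libraries, against 14.2% of all regions. Of 260 mesenteric-only regions, 109 had more mesenteric and 49 more spleen low libraries, or 112 and 87 without spleen low replicate 3, which stood apart in depth.

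Promoter sequences are shown for 6 of the named regions. They are the 250 bases before an annotated start, from RefSeq on build GRCm38.p6 (mm10), 5′ to 3′ on the gene's strand, and capitals mark motif matches named after them. The promoters of Eif4b, Plekho2 and Nav2 lie in regions with more reads in spleen.
Eif4b (chr15:102073523-102073772, plus strand): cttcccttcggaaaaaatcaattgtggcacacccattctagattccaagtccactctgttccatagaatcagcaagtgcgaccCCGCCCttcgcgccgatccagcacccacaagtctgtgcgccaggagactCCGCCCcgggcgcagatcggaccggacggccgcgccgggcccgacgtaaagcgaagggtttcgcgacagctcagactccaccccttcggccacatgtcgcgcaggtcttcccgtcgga
Plekho2 (chr9:65580088-65580337, minus strand): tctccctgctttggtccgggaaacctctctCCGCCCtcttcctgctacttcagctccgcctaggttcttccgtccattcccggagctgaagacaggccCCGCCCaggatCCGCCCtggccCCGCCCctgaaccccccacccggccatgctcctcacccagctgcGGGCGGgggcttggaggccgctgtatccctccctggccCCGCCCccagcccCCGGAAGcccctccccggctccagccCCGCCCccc
Nav2 (chr7:49245939-49246188, plus strand): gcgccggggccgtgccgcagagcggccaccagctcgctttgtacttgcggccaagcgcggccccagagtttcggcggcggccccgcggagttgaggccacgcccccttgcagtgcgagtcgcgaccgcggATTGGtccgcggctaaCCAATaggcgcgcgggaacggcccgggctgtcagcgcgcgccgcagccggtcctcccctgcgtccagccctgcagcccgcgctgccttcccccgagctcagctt
Those of Gm26744, an annotated transcript inside Map3k13, and of Gm35363 near Pde2a lie in regions with fewer reads in spleen.
Gm26744 (chr16:21845866-21846115, minus strand): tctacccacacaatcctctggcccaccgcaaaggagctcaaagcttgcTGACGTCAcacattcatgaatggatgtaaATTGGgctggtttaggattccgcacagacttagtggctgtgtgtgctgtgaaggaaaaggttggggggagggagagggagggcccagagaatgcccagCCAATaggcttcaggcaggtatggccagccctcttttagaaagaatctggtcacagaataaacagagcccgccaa
Gm35363 (chr7:101538452-101538701, minus strand): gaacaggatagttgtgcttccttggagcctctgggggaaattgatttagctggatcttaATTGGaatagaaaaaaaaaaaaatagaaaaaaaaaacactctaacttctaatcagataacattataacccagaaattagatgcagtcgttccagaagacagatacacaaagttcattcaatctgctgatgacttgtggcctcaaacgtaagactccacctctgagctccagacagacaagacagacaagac
That of Ptgs2os2, a transcript near Ptgs2, lies in a region with a peak in the spleen libraries only.
Ptgs2os2 (chr1:150164949-150165198, minus strand): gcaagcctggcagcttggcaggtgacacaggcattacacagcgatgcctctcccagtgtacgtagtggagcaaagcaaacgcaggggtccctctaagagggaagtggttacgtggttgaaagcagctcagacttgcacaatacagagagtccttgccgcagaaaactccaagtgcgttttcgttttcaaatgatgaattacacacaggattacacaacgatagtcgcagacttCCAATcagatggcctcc
Both strands were searched for 8 motifs, of which these windows held the SP/KLF box (GGGCGG or CCGCCC), the CCAAT box (CCAAT or ATTGG), the CRE (TGACGTCA) and the ETS core (CCGGAAG or CTTCCGG). The Plekho2 window held 7 SP/KLF boxes and the Eif4b window 2, and GC content was 72.4% and 62%. The Gm26744 and Gm35363 windows had 52.4% and 38.4%. Other windows in regions with more reads in spleen held no SP/KLF box. These were Nav2, at 74.4% GC, and Iftap and Gm21057, not shown, at 41.2% and 58.4%. A match is a description of letters and not a binding site.

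Each spleen list was shorter than each mesenteric list. The spleen lists held 17298, 17645 and 17960 peaks on chromosomes 1 to 19 and X, and the mesenteric lists 22885, 23129 and 23115. The means were 17634 ± 331 and 23043 ± 137 (SD, n = 3 each), and the groups did not overlap (exact permutation test, two-sided, p = 0.1, the smallest that 3 against 3 libraries can give). Spleen peaks covered 6558, 6483 and 6584 kb and mesenteric peaks 9068, 9139 and 9191 kb. The mesenteric libraries were also deeper. Their genome-wide background, recovered from the peak values as a relative depth, was 16.5, 16.6 and 16.6 reads per 10 kb, and the spleen libraries had 13.2, 14.0 and 14.0. When all 6 were thinned to the shallowest, 17440 ± 206 peaks were left in spleen and 22210 ± 117 in mesenteric libraries, so the difference (spleen minus mesenteric) was −4771 peaks, against −5409 as deposited. In the low-reporter cells the lists had 18008, 17564 and 14514 spleen peaks and 17490, 17203 and 17345 mesenteric peaks, and these groups overlapped. The difference between organs in high cells minus that in low cells was −4758 peaks, which missed the threshold (exact permutation of reporter levels within organs, 400 relabellings, two-sided, p = 0.07). That permutation assumes no difference between levels in either organ, which is more than an equal organ difference at both levels. Its p-value is therefore no direct measure of the latter. The spleen low replicate 3 library stood apart in depth, at 9.84 reads per 10 kb.

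**Figure D1:**
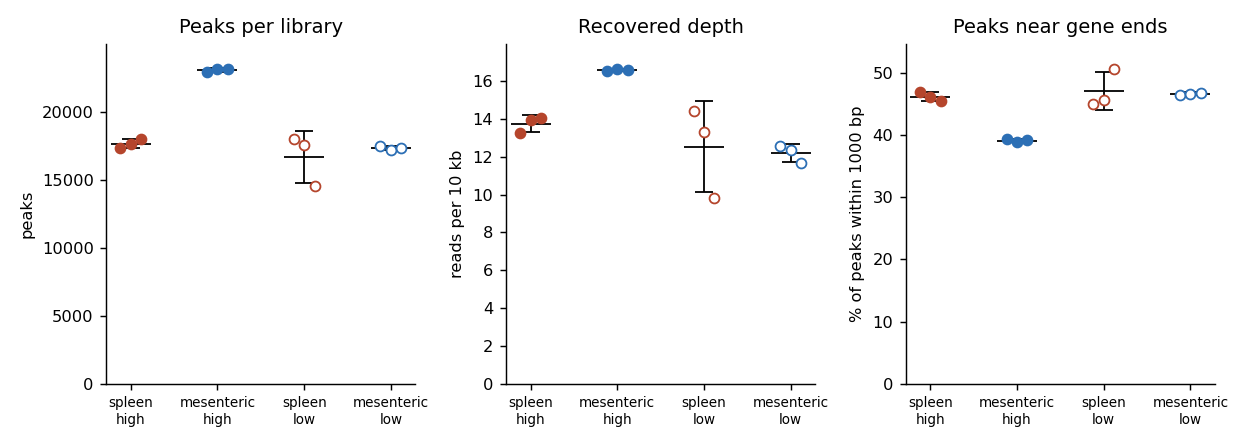
Peaks per library (left), recovered depth in reads per 10 kb (middle) and percent of peaks with a summit within 1000 bp of a gene end (right), for spleen high, mesenteric high, spleen low and mesenteric low libraries. Each point is 1 library, and bars are mean and SD (n = 3). The 3 mesenteric high libraries, at 22885 to 23129 peaks, lie above the 9 others in the left panel.

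The peaks of the 6 libraries merged into 30878 regions with a median width of 376 bp, of which 12345 had a peak in all 6. A peak in 3 of 3 spleen and 0 of 3 mesenteric libraries was found at 62 regions (0.201% of all regions), and the opposite at 1133 (3.67%). After thinning to equal depth the counts were 65 (0.216% of 30133 regions) and 949 (3.15%). With the 17298 strongest peaks of each library the counts were 210 (0.825% of 25466 regions) and 284 (1.12%). Equal lists balance the organs by construction, and in them the weakest mesenteric peak had a −log10 p of 10.1 in each library, against 5.01, 6.55 and 6.82 in spleen. Both as deposited and in equal lists, 54 regions were spleen-only and 260 mesenteric-only. With 2 libraries left in an organ the deposited counts ran from 97 to 164 for spleen-only and from 1655 to 1834 for mesenteric-only regions. No test was made of single regions, since 3 against 3 cannot give a p below 0.1. How open a region was where no peak had been called cannot be read from such lists.

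Among the 54 spleen-only regions the 8 strongest, by the lowest of their 3 values, are named by the nearest gene. That gene lay up to 373884 bp away. A region 20502 bp outside Cenpe, a kinetochore motor gene (chr3:135191844-135192279), had a −log10 p of 19.3, 18.7 and 17.3 in spleen. Its fold enrichment over local background, as the authors' caller gave it, was 11.2, 10.9 and 10.2 there, and no mesenteric library had a peak. A region inside Atf6, which encodes a sensor of endoplasmic reticulum stress (chr1:170709524-170709836), had fold values of 10.0, 10.8 and 10.9. Neither region had a mesenteric low peak, while Cenpe had a peak in 3 and Atf6 in 1 of the 3 spleen low libraries.

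Others had Cd69, Cxcr4 or Ptgs2 as the nearest protein-coding gene. A region 34271 bp outside Cd69, an early activation antigen that holds lymphocytes in tissue (chr6:129232948-129233159), had fold values of 5.58, 5.85 and 5.59 in spleen and summit reads of 25, 28 and 26. It lies 4992 bp from another annotated start, in a broad open area where local background was 16.5 to 17 times the genome-wide level. It had a peak in 3 spleen low and 1 mesenteric low library. The region next to the Cd69 gene itself (chr6:129275167-129275707) had a peak in all 6 libraries, with fold values of 8.33, 7.54 and 9.68 in spleen and 6.52, 6.98 and 7.86 in mesenteric libraries, and was not called. Other regions assigned to Cd69 leaned the other way as deposited. Those at chr6:129229008-129229537 and chr6:129248268-129248603 had a peak in 1 spleen and 3 mesenteric libraries. The region at chr6:129237055-129237281 had one in 0 spleen and 2 mesenteric libraries. The remaining Cd69 regions had a peak in all 6. A region 120742 bp from Cxcr4, the receptor for CXCL12 (chr1:128712832-128713251), had fold values of 7.72, 10.1 and 10.7. The Ptgs2os2 promoter region, 56830 bp from Ptgs2, the inducible cyclooxygenase gene (chr1:150164908-150165220), had 9.4, 9.07 and 7.3. Of the 8 regions, 7 had a peak in more spleen low than mesenteric low libraries. The region nearest to 2610001J05Rik, 250222 bp away, had none in either. The remaining 2 were nearest to Kctd8, 373884 bp away, and Pttg1ip2, 17634 bp away.

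The 8 strongest mesenteric-only regions were nearest to Dtx1, Ankrd12, Akap12, Clec16a, Top1, Cs, Il6st and Patz1. The region inside Dtx1, an E3 ligase of the Notch pathway (chr5:120696941-120697319), had a −log10 p of 18.8, 20.3 and 21.9 and fold values of 8.80, 9.66 and 10.3. The region 36364 bp from Il6st, which encodes the shared receptor subunit gp130 (chr13:112427533-112427880), had fold values of 7.21, 7.98 and 7.26. A region inside Top1, the topoisomerase I gene (chr2:160701714-160701963), had 10.4, 10.4 and 10.1 and one inside Cs, the citrate synthase gene (chr10:128344880-128345294), had 11.0, 10.1 and 9.86. In low cells the Dtx1 and Il6st regions had peaks in 2 spleen and 3 mesenteric libraries each, so absence in spleen did not extend to low cells there. The region inside Clec16a (chr16:10665230-10665765) had no peak in any of these low libraries.

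Presence in low cells gives a look at the same regions in libraries that did not choose them. Of the 54 spleen-only regions, 31 (57.4%) had a peak in more spleen low than mesenteric low libraries and 3 (5.56%) in fewer. Of the 260 mesenteric-only regions, 49 (18.8%) had more spleen low and 109 (41.9%) more mesenteric low libraries. Over all 30878 regions the shares were 14.2% and 18.1%. Without the spleen low replicate 3 library, and counting shares of libraries, they were 51.9% and 9.26% for spleen-only, 33.5% and 43.1% for mesenteric-only, and 18.9% and 17.4% for all regions. Of the 54 spleen-only regions, 15 had no peak in any of the 6 low libraries, as did 45 of the 260 mesenteric-only ones. Since regions were merged from high cells only, a low peak that falls outside them was not counted.

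**Figure D2:**
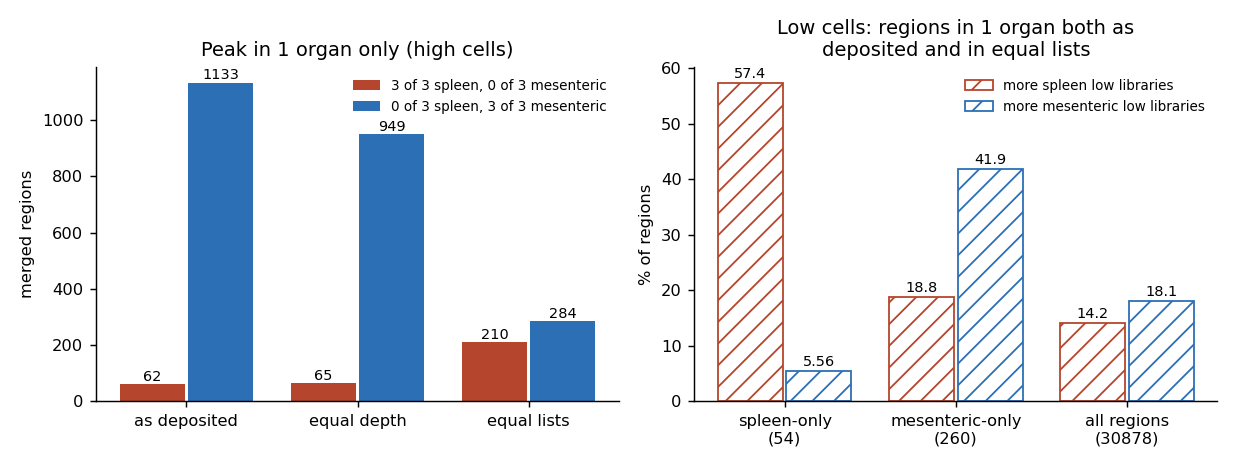
Left, number of merged regions seen in every high-cell library of 1 organ and in none of the other, as deposited, at equal depth and in equal lists. Right, for the regions of 1 organ only both as deposited and in equal lists, the percent with a peak in more spleen low or in more mesenteric low libraries. The spleen-only regions stand at 57.4% and 5.56%, and all regions at 14.2% and 18.1%.

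Peaks missing from spleen were mostly distant from gene starts. Among deposited mesenteric-only regions, 62.3% lay 2500 to 50000 bp from an annotated start and 12.5% within 500 bp. The shares were 46.7% and 30.0% for spleen-only regions and 47.3% and 29.1% for all regions. Counted per library, regions within 500 bp numbered 7296, 7249 and 7354 in spleen and 7945, 7958 and 7983 in mesenteric lists. At 10000 to 50000 bp there were 4231, 4394 and 4480 in spleen and 6494, 6605 and 6582 in mesenteric lists. A peak summit lay within 1000 bp of a gene end in 46.9%, 46.1% and 45.4% of spleen peaks and 39.3%, 38.8% and 39.1% of mesenteric peaks. The gap of 7.07 percentage points was 6.47 at equal depth and 0.807 in equal lists (exact permutation test, p = 0.1 each, the smallest possible). In low cells the gap was 0.438. The difference between high and low cells missed the threshold (exact permutation of reporter levels within organs, p = 0.06, 400 relabellings), with the limit given above for that permutation. The share therefore moved with list length, whose part in it was not tested beyond these settings.

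**Figure D3:**
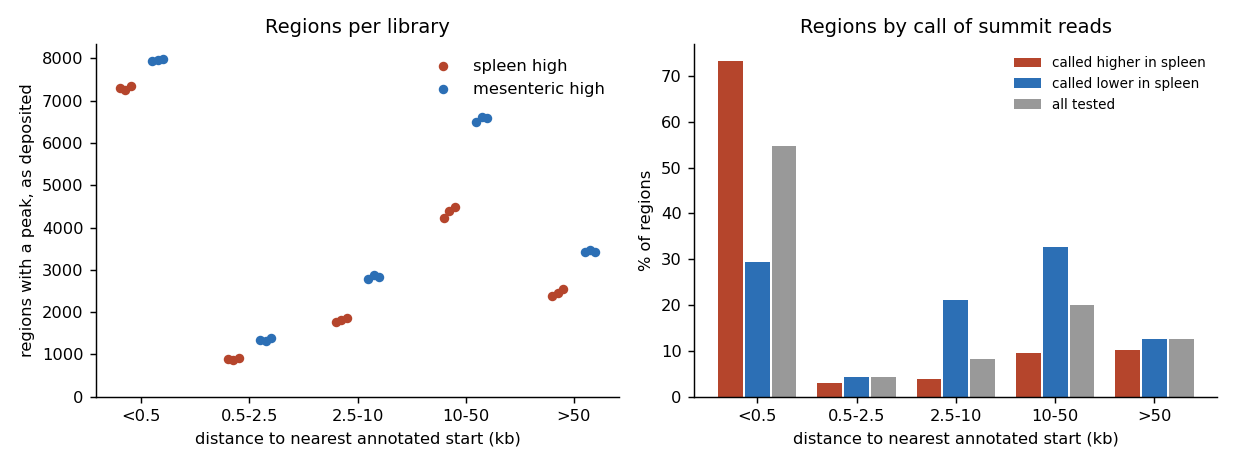
Left, regions with a peak per library by distance from the region's centre to the nearest annotated start in kb, spleen high and mesenteric high, 1 point per library. Right, percent of regions in each distance class among regions called higher in spleen, called lower in spleen and all tested for summit reads. Of those called higher, 73.3% lie within 500 bp, against 29.5% of those called lower and 54.6% of all.

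At the 12345 regions with a peak in all 6 libraries, peak values were lower in spleen as deposited. The median fold was 9.23, 9.28 and 9.42 in spleen and 10.4, 10.3 and 10.5 in mesenteric libraries. The median −log10 p was 17.3, 17.4 and 17.7 in spleen and 22.6, 22.6 and 23.0 in mesenteric libraries. It grows with depth, so it ranks peaks within a list and is no measure of openness between them. In equal lists the difference of the medians was −5.55, against −5.25 as deposited. Median reads at the summit were 18 in each spleen and 25 in each mesenteric library. Each library was therefore centred on its own median before regions were tested, and changes are relative to it. Without centring, the median log2 difference of fold over all regions was −0.13 and that of reads scaled to depth −0.15.

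Fold differed at few regions after centring. In limma with Benjamini-Hochberg adjustment, 0 regions (0%) were higher and 1 (0.0081%) lower in spleen, with 1022 and 769 at an unadjusted p under 0.05. The region lies inside Map3k13, a kinase upstream of JNK signalling, and holds the Gm26744 promoter with its CRE and 2 CCAAT boxes (chr16:21845786-21846355). Its fold was 4.73, 6.55 and 6.27 in spleen and 14.4, 14.1 and 14.4 in mesenteric libraries, on summit reads of 5, 9 and 8 against 24, 23 and 26. The groups stood far apart, with a log2 difference of −1.14 ± 0.16 (SE, limma, adjusted p = 0.00399). Without mesenteric replicate 1 the adjusted p was 0.0684 and no region was called lower, while 2 were without spleen replicate 3 or mesenteric replicate 3, and 1 was called higher without spleen replicate 1. With the trend of the difference over the mean removed, 2 regions (0.0162%) were higher and 6 (0.0486%) lower, and without centring 7 (0.0567%) and 505 (4.09%).

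Summit reads, recovered as whole numbers from fold and −log10 p, gave more calls, and their direction turned with the scaling. With each library centred on its median, 480 of 12091 regions (3.97%) were higher and 99 (0.819%) lower in spleen (limma, Benjamini-Hochberg adjusted p under 0.05). With the trend over the mean removed, the counts were 97 (0.802%) and 90 (0.744%). With reads scaled to genome-wide depth they were 52 (0.43%) and 745 (6.16%). The excess of higher calls lay in regions with many reads. In the fifth of regions with most reads, 298 were higher and 1 lower, with a median log2 difference of 0.15, against 30 and 9 and a median of 0.07 in the fifth with fewest. Leaving out spleen replicate 1, 2 or 3 gave 136, 182 and 299 higher and 70, 77 and 109 lower calls. Leaving out mesenteric replicate 1, 2 or 3 gave 82, 95 and 35 higher and 8, 13 and 1 lower.

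Replicates were closer to each other than counting noise. The chi-square per shared summit was 0.537 to 0.544 within spleen, 0.532 to 0.544 within mesenteric and 0.717 to 0.738 between organs, where independent counts give 1. A summit is the highest point of a region, for which 1 is not a strict standard. Limma's median SE was 0.19 and the SE from counting alone 0.26, so adjusted p-values here may be too small. Differences beyond 1.96 counting standard errors were found at 7.97% of regions with median centring, 5.67% with the trend removed and 10.2% with reads scaled to depth. The share in a normal distribution is 5.00%. Since replicates varied less than counting noise, that share is nominal, and the one for unchanged regions here was not measured.

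**Figure D4:**
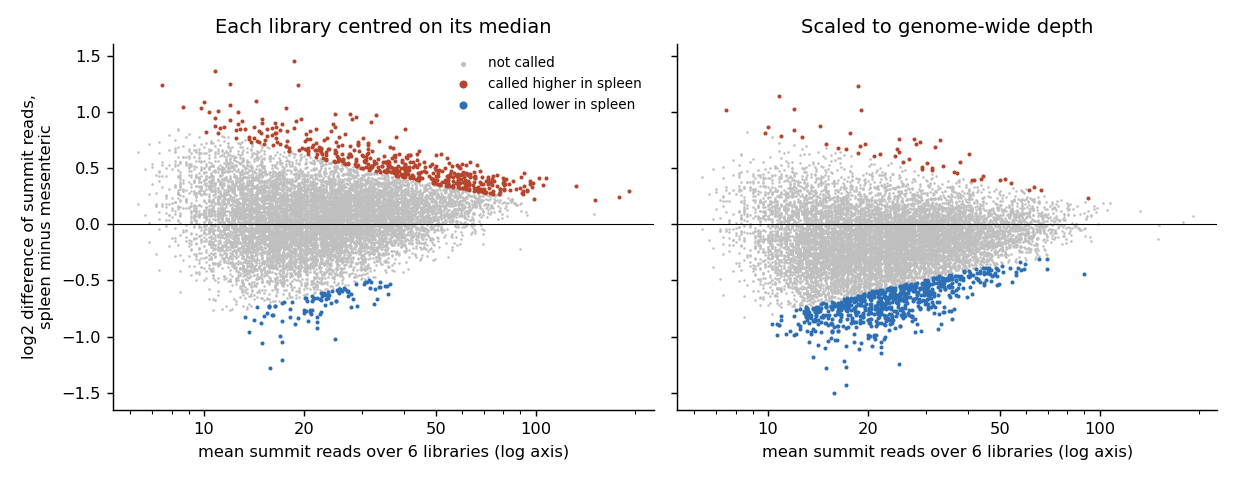
Log2 difference of summit reads, spleen minus mesenteric, against mean summit reads over the 6 libraries (log axis), with each library centred on its median (left) and scaled to depth (right). Each point is 1 of 12091 regions, coloured by its call in limma. Called points lie mainly above 0 on the left (480 and 99) and below 0 on the right (52 and 745).

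The regions described next were called in the same direction under all 3 scalings and had reads that did not overlap between organs. Of 12091 regions tested, 47 were called higher and 69 lower under all 3. Reads did not overlap at 45 of the 47 and at all 69, but also at 2890 of all 12091. The 8 per direction with the greatest log2 difference are named, a rule chosen after values were seen. Reads are given scaled to the mean depth of the 6 libraries, and differences are those with median centring.

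Higher regions lay at promoters of Eif4b, Plekho2, Iftap, Nav2 and Gm21057 and inside Mef2c, Bst1 and Arhgap26. The Eif4b promoter region, of a factor that stimulates the eIF4A helicase in translation initiation (chr15:102073578-102074135), had 26.3, 27.1 and 25.9 reads in spleen and 13.8, 12.8 and 12.8 in mesenteric libraries. The 2 organs were well separated, and the log2 difference was 1.24 ± 0.21 (SE, limma, adjusted p = 1.21e-05). Its fold values of 13.1, 13.0 and 12.9 against 9.23, 8.26 and 8.42 gave 0.75 ± 0.14 (adjusted p = 0.0592), and 0.0473 with the trend removed. The region inside Mef2c, a MADS-box transcription factor gene (chr13:83571960-83572622), had 30.9, 20.6 and 29.2 reads in spleen and 7.34, 16.4 and 11.9 in mesenteric libraries. Both organs varied widely there, without overlap (log2 difference 1.46 ± 0.22, adjusted p = 1.4e-06).

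Plekho2, which encodes a pleckstrin homology domain protein (chr9:65580004-65580628), had 27.5, 20.6 and 21.6 reads in spleen and 12.8, 12.8 and 13.7 in mesenteric libraries, a log2 difference of 1.04 ± 0.21 (SE, limma, adjusted p = 0.000526). Bst1, a cell surface enzyme gene also known as CD157 (chr5:43824460-43824983), had 16.0, 15.2 and 15.1 reads against 7.34, 7.29 and 6.41. In equal lists its peak was present in 3 spleen and 0 mesenteric libraries, as was the Gm21057 promoter region inside Zfp710, a zinc finger gene (chr7:80074857-80075391). Both had a deposited peak in all 6 libraries. Their mesenteric −log10 p was 8.67, 8.19 and 8.80 at Bst1 and 8.10, 6.04 and 8.17 at Zfp710. Equal lists kept no mesenteric peak under 10.1, so this absence follows from the cutoff and adds no support. Mef2c, Bst1, Zfp710, Eif4b and Plekho2 stayed called without any 1 library. The calls at Iftap, Nav2 and the region in Arhgap26 were lost without mesenteric replicate 1 (adjusted p 0.0908, 0.0908 and 0.0564) or 3 (0.122, 0.155 and 0.152), without spleen replicate 2 at Iftap (0.0715), 1 or 2 at Nav2 (0.121 and 0.0662) and 3 at Arhgap26 (0.0679). At Iftap the lowest spleen and the highest mesenteric library both had 13.7 reads, so these groups nearly met.

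Of the regions called lower with median centring, 58.6% lay inside genes, against 64.1% of all tested. The Map3k13 region had 5.73, 9.77 and 8.64 scaled reads in spleen and 22, 21 and 23.8 in mesenteric libraries, with a log2 difference of −1.28 ± 0.24 (SE, limma, adjusted p = 0.000139). A region inside Srpk1, a kinase of SR splicing factors (chr17:28612682-28613135), had 8.02, 9.77 and 8.64 against 18.3, 26.4 and 27.5 reads. The spread was wide in the mesenteric libraries only, and the log2 difference was −1.21 ± 0.23 (adjusted p = 0.000172). A region inside Arhgef10, a guanine nucleotide exchange factor gene (chr8:14961441-14962045), had 12.6, 13.0 and 17.3 reads in spleen and 30.3, 33.7 and 36.6 in mesenteric libraries. Its log2 difference was −1.02 ± 0.19 (adjusted p = 0.000139).

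The Gm35363 promoter region near Pde2a, a cyclic nucleotide phosphodiesterase gene (chr7:101538182-101538515), had 9.16, 10.9 and 8.64 reads in spleen and 28.4, 25.5 and 16.5 in mesenteric libraries. A region outside Rcan3, a regulator of calcineurin (chr4:135406098-135406632), had 9.16, 9.77 and 6.48 against 18.3, 18.2 and 24.7. Regions at Npc2, a lysosomal cholesterol carrier, Mlxipl, the glucose-responsive factor ChREBP, and L3mbtl3, a chromatin reader, complete the 8, with log2 differences of −0.99, −0.96 and −0.93. Their adjusted p-values were 0.00255, 0.00905 and 0.00137. Every lower region lost its call without at least 1 mesenteric library. Without mesenteric replicate 3 the adjusted p was 0.0566 at Map3k13, 0.0626 at Srpk1, 0.0587 at Arhgef10, 0.115 at Rcan3, 0.0934 at Npc2, 0.0681 at Mlxipl and 0.0761 at L3mbtl3. Without replicate 2 it was 0.0722 at Pde2a, 0.0808 at Npc2, 0.0823 at Mlxipl and 0.0726 at L3mbtl3. Without replicate 1 it was 0.115 at Pde2a and 0.142 at Mlxipl, and without spleen replicate 1 it was 0.0593 at Mlxipl.

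**Figure D5:**
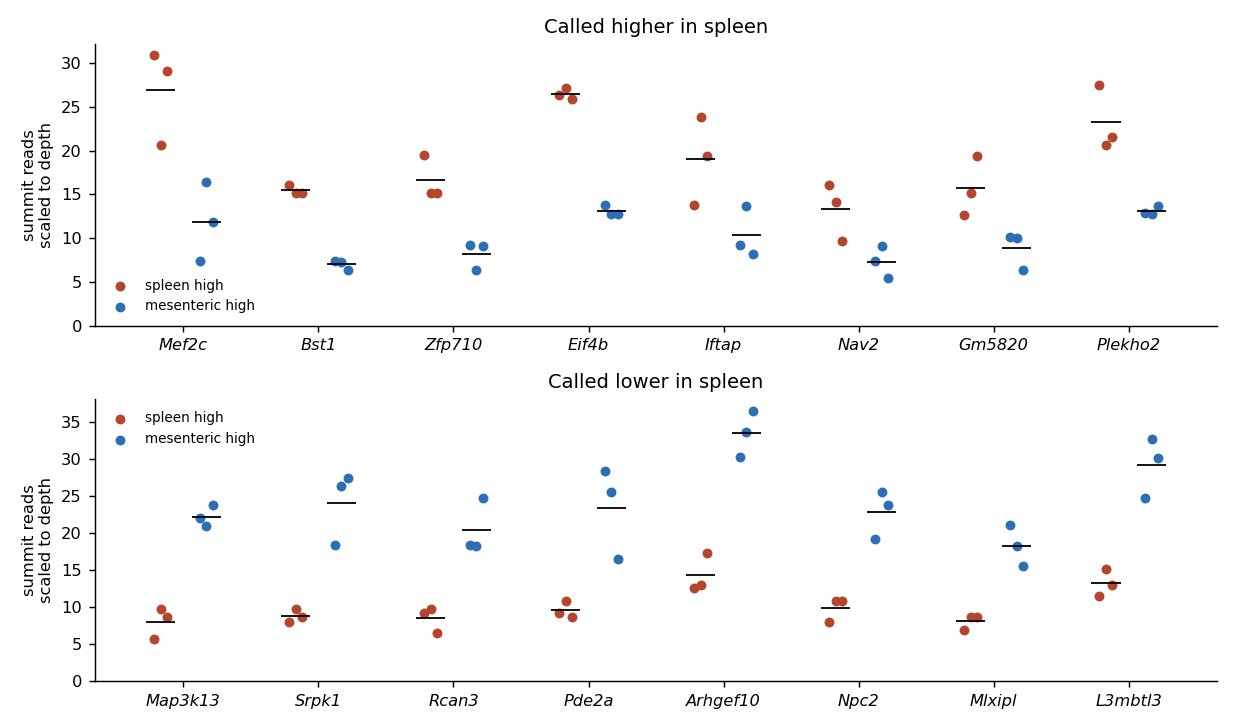
Summit reads scaled to the mean depth of the 6 libraries at the 16 named regions, spleen high left of mesenteric high at each gene, 1 point per library with the mean as a line. Regions called higher in spleen are above and those called lower below. The Eif4b region has 25.9 to 27.1 reads in spleen and 12.8 to 13.8 in mesenteric libraries.

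The called sets differed in position. Of the regions called higher with median centring, 73.3% lay within 500 bp of a start, against 29.5% of those called lower and 54.6% of all tested. Under all 3 scalings the shares were 67.4% and 29.4%. The promoter windows in regions called higher had a median GC content of 66%, those in regions called lower 58.8% and those in all shared regions 62%. The SP/KLF box was found in 345 of 471 windows (73.2%) of regions called higher, in 19 of 34 (55.9%) of regions called lower, in 66.8% of windows in shared regions and in 33.0% of all 32619 promoter windows. The CRE of the Gm26744 window was found in 10 of 471 (2.12%), 3 of 34 (8.82%), 3.30% and 1.56%. GC content and read number moved with the call, and their part in it was not tested. By chromosome, the median log2 difference of reads was highest on chromosome 14, at 0.16, and lowest on chromosome 19, at −0.05, against 0.07 over all regions. With the trend removed these medians were 0.07, −0.10 and 0.00.

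The called regions were also counted by their reads in low cells. Of 87 regions called lower in high cells and measured in all 6 low libraries, 17 had more reads in spleen and 70 fewer, with a median log2 difference of −0.20. Of 449 called higher, 230 had more and 219 fewer, with a median of 0.01, and over all 9906 such regions 42.5% had more reads in spleen, with a median of −0.04. Without the spleen low replicate 3 library, 20 of 90, 206 of 456 and 41.6% of all had more reads in spleen. A direct test of the organ difference in high minus low cells called 0 of 10234 regions by fold (0% in each direction, smallest adjusted p = 0.0816 in limma, 592 and 456 at an unadjusted p under 0.05). By reads it called 67 (0.676%) of 9910 with a more positive and 7 (0.0706%) with a more negative organ difference in high cells, and 3 of each with reads scaled to depth. Leaving out 1 of the 12 libraries gave 19 to 71 and 3 to 15 calls, the lowest count of 19 without spleen low replicate 2. The counts were 24, 32 and 24 without spleen high replicate 1, 2 or 3, 41, 38 and 40 without mesenteric high replicate 1, 2 or 3, 33 without spleen low replicate 1, and 25, 27 and 26 without mesenteric low replicate 1, 2 or 3. The 7 became 3 and 4 without mesenteric high replicate 1 or 2, 15 without spleen low replicate 3 and 14 without mesenteric low replicate 3, and fold then gave 1 call without spleen low replicate 3. The Map3k13 region was among those 7, with a difference of −1.44 (adjusted p = 0.0113), and its summit reads in low cells were 16, 19 and 11 in spleen and 14, 14 and 14 in mesenteric libraries. Arhgef10 also passed, at −1.02 (adjusted p = 0.0498), while Eif4b, at 0.96 (0.111), and Plekho2, at 0.88 (0.181), did not.

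Gene lists of T cell biology were counted by assigning each region to the nearest end of a protein-coding gene within 100000 bp. Over all 28682 regions so assigned, 183 were spleen-only and 267 mesenteric-only in equal lists, and 474 and 95 of 11579 were called higher and lower by reads with median centring, 45 and 66 of them under all 3 scalings. In the TCR signal and activation list, 1 of 135 regions was spleen-only, the Cd69 region, and 1 mesenteric-only, near Cd28, the costimulatory receptor (chr1:60713775-60714101, fold 8.15, 7.80 and 8.91). In it 3 of 51 regions tested were called higher and 0 lower with median centring, and 0 in either direction under all 3 scalings. In the naive and quiescence list, 1 of 210 regions was spleen-only, at the promoter of Ikzf1, a lymphoid zinc finger factor (chr11:11685456-11686300), and 3 were mesenteric-only. Those 3 lay at Ets1, Klf3 and Tob1, all regulators of T cell quiescence or development, and as deposited Tob1 and Ikzf1 each had a peak in 1 library of the other organ. Of its 58 regions tested, 1 was called higher and 2 lower with median centring, and 0 and 2 under all 3 scalings.

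The list of retinoic acid and TGF-beta genes had 0 spleen-only and 4 mesenteric-only regions of 113 in equal lists. Over all 28682 assigned regions there were 183 and 267, and whether a list departs from this was not tested. The 4 of the list were 2 regions inside Tgfbr3, the betaglycan co-receptor, and 1 each inside Tgfbr2, the signalling receptor, and Smad4, the shared transducer. The Tgfbr2 region (chr9:116091144-116091658) had fold values of 6.80, 7.77 and 8.44 in mesenteric libraries and no peak in low cells of either organ. One Tgfbr3 region had a deposited peak in spleen replicate 3. Of 32 regions of the list tested by reads, 3 were called higher and 0 lower with median centring, and 1 and 0 under all 3 scalings. The median log2 difference of reads in the list was −0.000857, against 0.07 over all regions. The homing and migration list had 1 spleen-only and 3 mesenteric-only regions of 121. The spleen-only one is the Cd69 region, and the others lay at Itga6, an integrin that binds laminin, Arhgap15 and Gpr18. In this list 3 of 41 regions tested were called higher and 1 lower with median centring, and 0 in either direction under all 3 scalings.

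Of 88 regions near potassium and calcium channel genes, 1 was spleen-only and 4 mesenteric-only in equal lists, against 183 and 267 of all 28682 assigned regions. By reads, 1 of 25 tested was called higher and 0 lower with median centring, and 0 in either direction under all 3 scalings. A region 24743 bp from Kcna3, which encodes the voltage-gated potassium channel of T cells (chr3:107062698-107063047), had fold values of 9.90, 7.50 and 9.41 in mesenteric and no peak in spleen libraries. In low cells it again had a peak in 3 of 3 mesenteric libraries (8.74, 4.90 and 6.54) and 0 of 3 spleen libraries. The Kcna3 promoter region had fold values of 4.86, 4.62 and 6.06 in spleen and 6, 5.87 and 4.84 in mesenteric libraries, which overlapped. The other mesenteric-only regions of the list lay at Itpr3, an inositol trisphosphate receptor, and at Atp2b4 and Atp2b1, calcium pumps of the plasma membrane.

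A few regions of the other lists stood out by presence or reads. A region 800 bp from Hspa1a, an inducible heat shock gene (chr17:34968204-34968915), was mesenteric-only in high cells (fold 6.19, 7.34 and 7.73) and in low cells (5.46, 7.21 and 6.44). One inside Nfkb1 (chr3:135636477-135636751) had fold values of 11.1, 9.14 and 8.29 in mesenteric libraries, with 0 spleen low and 2 mesenteric low libraries. The Ifnar1 promoter region, of the type I interferon receptor (chr16:91484898-91485500), had 42.4, 31.5 and 37.8 scaled reads in spleen and 27.5, 23.7 and 28.4 in mesenteric libraries (log2 difference 0.70 ± 0.16, limma, adjusted p = 0.00162). A region 93650 bp from Ifngr1 (chr10:19498120-19498478) had 10.3, 7.60 and 7.56 against 18.3, 15.5 and 18.3 (−0.82 ± 0.25, adjusted p = 0.031). The Ifnar1 call was lost without spleen replicate 1 (adjusted p = 0.0757) or mesenteric replicate 2 or 3 (0.0726 and 0.062). The Ifngr1 call was lost without spleen replicate 2 or 3 (0.0992 and 0.0748) or mesenteric replicate 1, 2 or 3 (0.175, 0.0941 and 0.170). That region lies 3656 bp from another annotated start. A region 8 bp from Ifngr1 itself (chr10:19591536-19592347) had a log2 difference of 0.23 in high cells after median centring. Its unscaled summit reads were 44, 38 and 41 in spleen high and 44, 49 and 51 in mesenteric high libraries. There the organ difference in high minus low cells was 0.68 (limma interaction, adjusted p = 0.0472). Such calls numbered 67 with median centring and 3 with reads scaled to depth. Spleen-only and mesenteric-only counts in equal lists were 1 and 1 for effector and memory genes (Bhlhe40 and Prdm1), and 0 and 2 for metabolism and stress. They were 0 and 1 each for T helper lineage, cytokine receptors and the list of NF-kB, IRF, NFAT and AP-1 factors, and 0 and 0 for negative regulators of TCR signal, regulatory T cell, interferon response and housekeeping genes.

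The label of naive CD4 T cells was checked against marker genes. Of all 30878 regions, 55.3% to 57.3% had a peak in each spleen library and 73.3% to 74.2% in each mesenteric library, and the marker counts are to be read against these shares. All 12 naive CD4 T cell markers had a region, 61 in all, of which 28 to 33 had a peak per spleen library and 43 to 50 per mesenteric library. A region 30890 bp from Tcf7, a factor of naive T cells (chr11:52313909-52314637), had 17.2, 17.4 and 11.9 scaled reads in spleen and 29.4, 26.4 and 29.3 in mesenteric libraries (log2 difference −0.67 ± 0.20, limma, adjusted p = 0.0253). Without spleen replicate 3 its adjusted p was 0.138, and without mesenteric replicate 1, 2 or 3 it was 0.175, 0.107 and 0.173. The main region inside Cd4 (chr6:124885048-124886417) had 79.0, 71.7 and 74.5 scaled reads in spleen and 106, 102 and 97.9 in mesenteric libraries. It missed the threshold with median centring (−0.22 ± 0.08, adjusted p = 0.0677) and passed it with the trend removed (−0.48, 6.92e-06) and scaled to depth (−0.44, 0.000128). Its local background was 37.0, 34.5 and 36.3 times the genome-wide level in spleen and 62.0, 61.4 and 62.3 times in mesenteric libraries, and its fold was higher in spleen, at 7.62, 7.29 and 7.61 against 6.61, 6.41 and 6.07. The Cd3e promoter region, of a T cell receptor chain (chr9:45009316-45009856), had a peak in 2 of 3 spleen libraries (fold 7.28 and 4.34) and 3 of 3 mesenteric libraries (6.60, 8.16 and 5.56). No region had Foxp3, the regulatory T cell factor, as its nearest gene. A region nearby that is nearer to another gene would not be counted, so openness around Foxp3 was not examined. B cell markers had 6 regions, with 1 to 3 present per spleen and per mesenteric library. Myeloid markers had 24, with 4 to 10 in spleen and 9 to 14 in mesenteric libraries, and 1 inside Spi1 was mesenteric-only in equal lists. For CD8 T cell markers there were 5 to 9 and 14 to 16 of 19, for NK cells 3 to 4 and 4 to 5 of 5, and for dendritic cells 2 to 4 and 4 to 5 of 7. Erythroid markers had 2 and 4 of 5, and stromal and endothelial markers 2 to 6 and 7 to 9 of 13. The part of other cells in the organ differences was not tested.

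At Nr4a1, whose reporter was used for sorting, 8 regions had a peak in all 6 libraries. The promoter region (chr15:101266306-101267254) had 200, 173 and 166 scaled reads in spleen and 181, 166 and 185 in mesenteric libraries, which overlapped. With median centring it was called higher in spleen (0.24 ± 0.04, limma, adjusted p = 9.28e-05), but not with the trend removed (−0.12, 0.114) or scaled to depth (0.02, 0.867). The same held at chr15:101246076-101247178 (0.29, adjusted p = 1.38e-07 with median centring) and chr15:101258253-101259022 (0.22, 0.00231). The region at chr15:101253681-101254415, inside Nr4a1, was called only with the trend removed, and there it was lower in spleen (−0.245, 0.000983). The remaining Nr4a1 regions were not called under any of these scalings. Local background at 7 of the 8 regions was 86.8 to 142 times the genome-wide level, while the median shared region had 4.44 to 4.53 times in spleen and 5.41 to 5.49 in mesenteric libraries. The labels do not give the copy number of this locus, so reads there may come from the reporter or from the gene itself, and these cannot be told apart.

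Region sets of the 2 organs overlapped less than those of replicates. The Jaccard index, the shared part of 2 sets, was 0.629 to 0.643 in 9 pairs between organs, 0.683 to 0.686 in 3 pairs within spleen and 0.718 to 0.721 in 3 pairs within mesenteric nodes. In equal lists it was 0.674 to 0.686, 0.685 to 0.691 and 0.720 to 0.725. Values between organs and within spleen thus overlapped slightly once lists had 1 length, and since pairs share libraries no test was made.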

How the data were processed

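The deposited data are 1 ATAC-seq peak list per library on mm10. MACS, Bowtie2, bedtools and Trimmomatic 0.33 are named in the submitters' processing notes, while the remaining versions, the caller options and the treatment of duplicates and read ends are not stated there. The authors' caller gave each peak a score, a −log10 p, a −log10 q and a fold (the ratio of the summit to its surroundings) in the deposited files. Peaks were called per sample. The 6 lists held 122032 peaks on chromosomes 1 to 19 and X, which were merged by overlap of at least 1 bp. A further 149 peaks lay outside these chromosomes and were set aside.

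From fold and −log10 p, a single whole-number pileup matched within 0.002 in 99.4% of peaks. Equal lists kept the 17298 strongest peaks by −log10 p. Equal depth was reached by binomial thinning (20 draws, −log10 p of at least 5; presence from the 1st draw). Regions with a peak in all 6 libraries were tested on log2 values, the strongest peak per region, with limma 3.58.1 (trend) in R 4.3.3 and Benjamini-Hochberg adjustment at 0.05 over all of them. Values per library were compared with exact permutation tests. Scripts were tested on simulated data. A pileup of few reads carries counting error that limits its precision. Scaled reads are pileups divided by relative depth.

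Members, gene lists and tests were chosen with earlier results of these data known. Named regions are (a) the 8 per direction in 1 organ only, as deposited and in equal lists, by the lowest −log10 p, (b) the 8 per direction called with the greatest difference, (c) up to 4 per gene list, and (d) Nr4a1, Cd69, Kcna3, Foxp3, Cd4 and Cd3e. For (b), fold gave 1 region, so reads called under 3 scalings were used, chosen after the data were seen. Genes came from 21631 protein-coding entries and starts from 32619 RefSeq promoter windows, both on GRCm38.p6. For 925 regions without such windows on their chromosome no distance was computed. Alternatives, including the trend removal added after the data were seen, are given in the closing section.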

Additional observations from a re-analysis of the deposited data

Results flagged for a closer look

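At 8 regions the organ difference in summit reads (log2, spleen minus mesenteric) differed between high and low cells in limma's interaction test with Benjamini-Hochberg adjustment. They are the 4 per direction with the smallest p, named after their values were seen. Regions are given with the 4 groups' summit reads as recovered, not scaled to depth.

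At Rab22a, a small GTPase of endosomes (chr2:173659164-173660129), reads were 40, 37 and 38 in spleen high and 29, 23 and 31 in mesenteric high libraries. In low cells they were 33, 28 and 31 in spleen and 40, 38 and 43 in mesenteric libraries, and the difference of differences was 1.31 (adjusted p = 3.93e-05). At Sipa1l2 (chr8:125569630-125570364) high cells had 35, 30 and 35 in spleen and 21, 25 and 27 in mesenteric libraries. Low cells had 24, 29 and 24 and 34, 35 and 36, a difference of 1.34 (adjusted p = 8.85e-05). At Larp1b high cells had 58, 54 and 56 in spleen and 54, 60 and 59 in mesenteric libraries, and low cells 62, 48 and 52 in spleen and 79, 71 and 85 in mesenteric libraries, a difference of 0.93. At Yipf6 high cells had 55, 61 and 51 in spleen and 60, 48 and 49 in mesenteric libraries, and low cells 51, 45 and 42 in spleen and 59, 61 and 71 in mesenteric libraries, a difference of 0.99. Both had an adjusted p of 3.93e-05 and missed the threshold with reads scaled to depth (0.19 and 0.153).

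In the other direction, a region inside Pcgf5, a Polycomb gene (chr19:36375085-36375881), had 10, 14 and 13 in spleen high and 27, 25 and 26 in mesenteric high libraries. Low cells had 16, 11 and 16 in spleen and 7, 9 and 7 in mesenteric libraries, a difference of −1.55 (adjusted p = 0.00543). Inside Epas1 (chr17:86801725-86802281) high cells had 12, 10 and 8 against 22, 21 and 24, and low cells 23, 19 and 19 against 16, 13 and 10, a difference of −1.41 (adjusted p = 0.00829). The Map3k13 region had 5, 9 and 8 in spleen high and 24, 23 and 26 in mesenteric high libraries, and in low cells 16, 19 and 11 in spleen and 14, 14 and 14 in mesenteric libraries, a difference of −1.44 (adjusted p = 0.0113). Inside Atxn7 high cells had 27, 18 and 34 in spleen and 52, 46 and 45 in mesenteric libraries, and low cells 26, 27 and 27 in spleen and 20, 17 and 21 in mesenteric libraries. Its difference was −0.94 (adjusted p = 0.0375), and missed the threshold with reads scaled to depth (0.122).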

How the results depend on the processing

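The gap in peaks per library and the gap in the share of peaks near gene ends kept their direction under every alternative run. Leaving out 1 library gave −5571.5 to −5240.5 peaks and 6.71 to 7.42 percentage points, 97 to 164 spleen-only and 1655 to 1834 mesenteric-only regions. It gave 0 to 1 higher and 0 to 2 lower regions by fold, and 35 to 299 higher and 1 to 109 lower by reads. For the difference between high and low cells it gave 0 more positive and 0 to 1 more negative regions by fold, and 19 to 71 and 3 to 15 by reads. Spleen-only regions numbered 210 in equal lists and 34 with peaks of −log10 p of at least 10, and mesenteric-only regions 284 in equal lists. By fold, higher and lower regions numbered 1 and 2 in equal lists, 1 and 4 at a −log10 p of at least 10, 7 and 505 without centring and 2 and 6 with the trend removed, and 0 were lower when a peak had to cover 50% of its region. By reads, higher regions numbered 273 in equal lists, 256 at a −log10 p of at least 10, 247 with 50% cover, 52 scaled to depth, 173 in a fit on 12 libraries and 97 with the trend removed, and lower regions 745 scaled to depth and 50 in the fit on 12 libraries. Some of these settings test fewer regions, and the cause of the others was not tested. Between high and low cells, reads gave 38 and 12 regions in equal lists and 3 and 3 scaled to depth. In equal lists the median −log10 p differed by −5.55 and the mean Jaccard index between organs was 0.680, against −5.25 and 0.636 as deposited.

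With the replicate number as a block, 511 regions were higher and 107 lower by reads, 0 and 1 by fold, and 67 and 7 differed between high and low cells by reads. The same-numbered libraries did not deviate together (correlations 0.00098, 0.015 and −0.0035), so the numbers were not taken to pair samples. For single named regions, 36 of 200 alternative values by reads lost their call and none reversed, 18 of 205 by fold gained one and 1 lost it, and 14 of 152 presence differences moved. The regions of (b) were chosen for the same direction under 3 scalings, so those settings could not reverse them. Median summits of 18 and 25 reads limit what single regions can show.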
